A study of Homo sapiens with 6 samples.

Results

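Tetraspanins are membrane proteins that cross the membrane several times and gather integrins, other receptors and signaling enzymes into patches of the cell surface and of internal vesicles. They carry no enzyme activity of their own, and what they do depends on the partners they hold. Several of them are largely restricted to blood cells, among them CD53 and CD37, while others such as CD81, CD82 and CD9 are found in many tissues.

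The 10 tetraspanin genes described here are CD9, CD37, CD53, CD81, CD82, CD151, TSPAN3, TSPAN4, TSPAN31 and TSPAN32. A probe set was included when the annotation of the HG-U133A microarray assigned it to one of these genes and to no other gene, which gave 13 of the 22283 probe sets on the array. Each of TSPAN3, TSPAN4 and TSPAN31 had a pair of probe sets and each of the other genes had 1.

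Total RNA came from HL60 cells, an established human promyelocytic leukemia line that differentiates toward granulocytes when exposed to tretinoin (all-trans retinoic acid), a ligand of the retinoic acid receptors. One condition was kept for 5 days with 1 μmol/l tretinoin dissolved in the solvent DMSO (dimethyl sulfoxide, 0.1% in the medium), and the other for 5 days with 0.1% DMSO and no tretinoin. No genetic change was introduced, and both conditions shared the same solvent. There were 3 tretinoin arrays and 3 DMSO arrays, and the study's figure legend describes them as parallel hybridizations of pooled labeled product. What the p-values below capture is thus how far hybridizations of 2 RNA pools varied, which says nothing of variation between cultures.

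The deposited signals are linear MAS5 intensities. All arrays were brought to the mean signal of DMSO replicate 1, with factors between 0.820 and 1.36 (the largest for tretinoin replicate 2), and between 12239 and 13397 probe sets then exceeded the baseline of 20 units. Between arrays, log2 signals of all probe sets (not independent replicates of one another) correlated at 0.968 to 0.982 within tretinoin, 0.974 to 0.976 within DMSO and 0.899 to 0.905 between conditions. The ratio of 3' to 5' signal of the ACTB control, a common readout of RNA integrity, was 1.14 to 1.17 on tretinoin arrays and 1.38 to 1.42 on DMSO arrays. That of the GAPDH control ran the other way, at 1.15 to 1.19 on tretinoin arrays and 1.06 to 1.17 on DMSO arrays, and the part of either in the results was not tested. Of the promyelocyte markers, 7 of 7 measured genes fell, with a summed signal of 455 to 505 on tretinoin arrays and 6760 to 7790 on DMSO arrays. Of the granulocyte and monocyte markers, 8 of 8 rose, with a summed signal of 7930 to 8941 on tretinoin arrays and 683 to 710 on DMSO arrays. Such sums are led by the brightest probe sets and do not describe each gene. CCL2 alone read 4719 to 5188 units on tretinoin arrays. On DMSO arrays MPO read 2914 to 3367 units and MYC 2485 to 3092. Both marker lists were chosen with earlier results of these data known, so their counts are no independent evidence. In such bulk samples, fewer cells of a type and less RNA per cell cannot be told apart. No gene of the B cell, T cell, platelet and megakaryocyte, or erythroid marker lists was called by limma or had an unadjusted p under 0.05, and no epithelial marker reached the test. Several tetraspanins are known from those cells. The B cell markers summed to 36.5 to 64.0 units on tretinoin arrays and 43.9 to 75.6 on DMSO arrays, and the platelet markers to 106 to 167 units on tretinoin arrays and 120 to 153 on DMSO arrays. Both of these sums include values under the baseline.

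RefSeq promoter sequence was at hand for 5 of the 10 genes. It is shown for CD53 and TSPAN31, the members with such sequence that rose, so that the start sites next to the measured changes can be seen. The windows are the 250 bases before a start site, on the plus strand of GRCh38.p14, and capitals mark matches to any of 4 short motifs on either strand. The motifs were GAGGAA, the core of sites bound by the myeloid factor PU.1, AGGTCA, the half-site of retinoid receptors, GGGCGG, the GC box, and CCAAT, the CCAAT box. CD53 has 2 annotated starts, with windows at chr1:110870960-110871209 and chr1:110872898-110873147, and the TSPAN31 window lies at chr12:57744789-57745038.
CD53 first start: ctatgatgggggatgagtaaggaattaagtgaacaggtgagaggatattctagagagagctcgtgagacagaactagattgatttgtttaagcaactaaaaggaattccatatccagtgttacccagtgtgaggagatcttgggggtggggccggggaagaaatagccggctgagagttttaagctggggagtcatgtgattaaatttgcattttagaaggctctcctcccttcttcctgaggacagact
CD53 second start: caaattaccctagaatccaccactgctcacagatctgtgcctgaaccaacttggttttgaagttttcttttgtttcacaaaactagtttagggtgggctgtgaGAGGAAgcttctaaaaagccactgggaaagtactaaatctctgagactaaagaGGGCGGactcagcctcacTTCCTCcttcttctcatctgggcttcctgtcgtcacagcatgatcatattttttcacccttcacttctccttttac
TSPAN31 start: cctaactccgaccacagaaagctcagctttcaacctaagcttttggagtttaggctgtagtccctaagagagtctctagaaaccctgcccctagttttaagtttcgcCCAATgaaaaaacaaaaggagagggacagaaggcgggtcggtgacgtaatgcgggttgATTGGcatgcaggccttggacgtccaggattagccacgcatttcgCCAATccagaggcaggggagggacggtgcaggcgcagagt
The first CD53 window held none of the 4 motifs. The second held GAGGAA 147 bases before the start, its reverse complement TTCCTC 76 bases before the start and a GC box 94 bases before it. GAGGAA occurred on either strand in 23.6% of the 35116 promoter windows of that length and the GC box in 42.6%. The TSPAN31 window held CCAAT boxes 143, 85 and 40 bases before the start, the middle one on the minus strand, and a CCAAT box occurred in 32.0% of all windows. None of the 13 windows of the 5 members held AGGTCA, which occurred in 12.1% of all windows. The CD53 windows were 45.2% and 44.0% G and C, and the TSPAN31 window 52.8%. The single window of CD82 was at 77.2%, the 5 windows of TSPAN4 at 64.0% to 84.0% and the 4 of CD9 at 44.8% to 76.8%. The CD82 window held GC boxes, as did 4 of the 5 TSPAN4 windows and 2 of the 4 CD9 windows. Members that were not called or not tested also held the other motifs, with GAGGAA on either strand in 2 of the 4 CD9 windows and 1 TSPAN4 window, and a CCAAT box in 1 CD9 window and 1 TSPAN4 window. These matches are letters in a window and were not tested as binding sites.

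Of the 13 probe sets, 11 exceeded 20 units on at least 3 arrays and were tested with limma over all 13374 probe sets that met that condition. Calling a probe set changed took both a Benjamini-Hochberg adjusted p below 0.05 and a change of 1.5-fold or more. Tretinoin was followed by a rise of CD53, TSPAN31 (on 1 of its 2 probe sets), CD81 and CD37 and by a fall of TSPAN3 (on both probe sets) and TSPAN32. That is 4 probe sets called higher, where 13.6% of all tested probe sets were, and 3 called lower, where 13.8% were. The other 4 tested probe sets, of CD82, TSPAN4 and TSPAN31, were not called. The median log2 change of the 11 was 0.56, beside -0.03 over all tested probe sets. With no scaling of the arrays, which moved that overall median to -0.21, 2 tetraspanin probe sets were called higher and 3 lower. The 3 tretinoin and 3 DMSO values did not overlap for 8 of the 11, and they did not overlap for 46.0% of all tested probe sets. The members were chosen with earlier results of these data known, so their counts and median are no independent evidence.

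**Figure D1:**
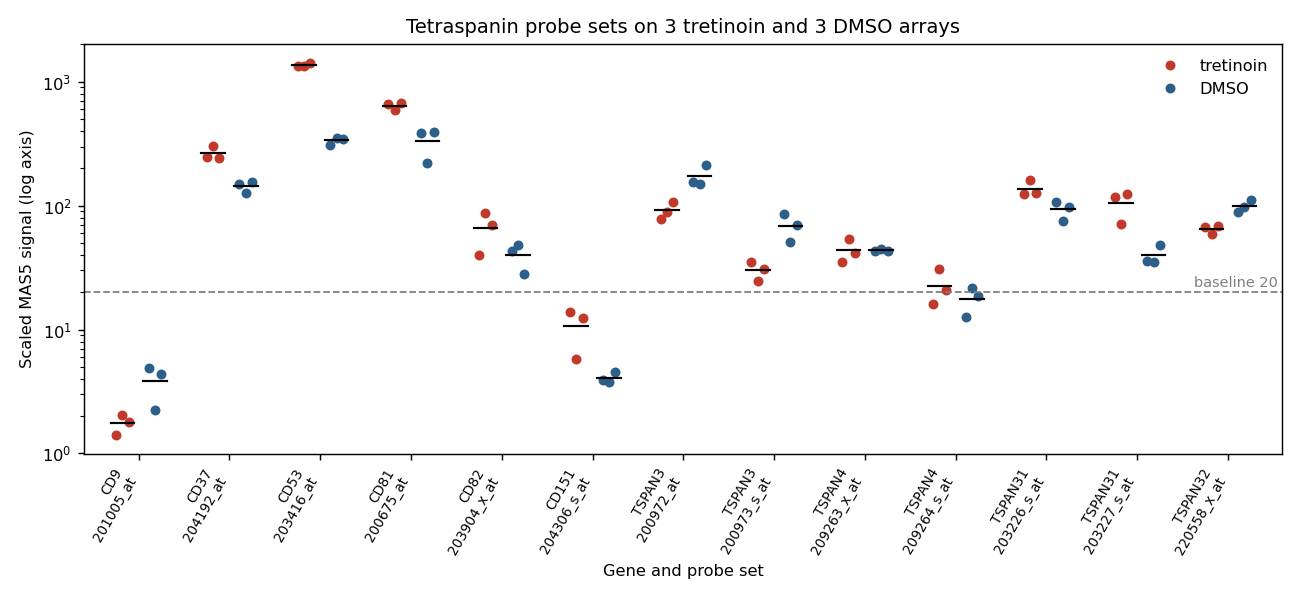
Scaled MAS5 signal (log axis) of each tetraspanin probe set on the 3 tretinoin arrays (red, left of each pair) and the 3 DMSO arrays (blue, right), with a black line at the mean of each condition and a dashed line at the baseline of 20 units. CD53 read 1330 to 1428 units on tretinoin arrays and 309 to 355 on DMSO arrays, and every value of CD9 and CD151 lay under the baseline.

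CD53, a tetraspanin carried by leukocytes of nearly every lineage, had the largest fitted change of the 11 tested probe sets. Its probe set 203416_at read 1330, 1353 and 1428 units on tretinoin replicates 1 to 3, against 309, 355 and 344 units on DMSO replicates 1 to 3. Every tretinoin value was above every DMSO value by a wide margin. The means were 1370 ± 51.0 units with tretinoin and 336 ± 23.8 units with DMSO (SD, n = 3 each), a fitted rise of 4.08-fold (log2 2.03, 95% interval 1.74 to 2.32, limma adjusted p = 6.65e-05). A larger rise was seen for 1.71% of all tested probe sets. CD53 was called in all 17 alternative fits, with log2 changes from 1.83 to 2.07.

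CD37 is a leukocyte tetraspanin best known from B cells, and in mouse myeloid cells it associates with the fungal receptor dectin-1. Probe set 204192_at read 248, 305 and 242 units on the tretinoin arrays, against 151, 127 and 154 units on the DMSO arrays. All 3 tretinoin values lay above the DMSO values, and tretinoin replicate 2, the array with the largest scale factor, was the highest. Means were 265 ± 34.3 units with tretinoin and 144 ± 14.7 units with DMSO (SD, n = 3 each), a rise of 1.84-fold (log2 0.88, 95% interval 0.52 to 1.24, limma adjusted p = 0.00453). A larger rise was seen for 9.52% of tested probe sets. Without scaling the change was 0.68 on the log2 scale with an adjusted p of 0.0573, and the call was lost.

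CD81, a widely expressed tetraspanin and a receptor for hepatitis C virus, also rose, with a wide spread among the DMSO arrays. Probe set 200675_at read 662, 587 and 680 units with tretinoin, against 388, 219 and 391 units with DMSO. The conditions did not overlap, but DMSO replicate 2 stood well under the other two DMSO arrays. Means were 643 ± 49.2 units with tretinoin and 333 ± 98.1 units with DMSO (SD, n = 3 each), and the fitted log2 change was 1.00 (95% interval 0.43 to 1.57, limma adjusted p = 0.0185), a size exceeded by 7.73% of tested probe sets. The direction held in all 17 alternatives and the call in 12. The call was lost without tretinoin replicate 1 (adjusted p = 0.0597), without tretinoin replicate 3 (adjusted p = 0.0647), without scaling (adjusted p = 0.0618), with a floor of 40 units (adjusted p = 0.0591) and without the filter on low values (adjusted p = 0.0954). Without DMSO replicate 2 the log2 change was 0.72 and remained called.

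TSPAN31, once named SAS for its amplification in sarcomas, had 2 probe sets of which 1 was called. Probe set 203227_s_at read 118, 71.2 and 124 units with tretinoin, against 35.9, 34.9 and 48.0 units with DMSO. The lowest tretinoin value, on replicate 2, was still above the highest DMSO value. Means were 104 ± 29.0 units with tretinoin and 39.6 ± 7.29 units with DMSO (SD, n = 3 each), a rise of 2.59-fold (log2 1.37, 95% interval 0.78 to 1.96, limma adjusted p = 0.00569) that was called in all 17 alternatives and exceeded by 4.48% of tested probe sets. The second probe set, 203226_s_at, read 123, 162 and 127 units with tretinoin, against 107, 75.4 and 97.9 units with DMSO. These values did not overlap either, but the fitted change was 1.47-fold (log2 0.56, 95% interval 0.12 to 1.00, limma adjusted p = 0.0599) and was called in none of the 17 alternatives. The log2 change of 203226_s_at minus that of 203227_s_at was -0.82 (95% interval -1.97 to 0.34), with p = 0.3 in an exact two-sided permutation test over the 6 arrays. The smallest p such a test allows with 3 against 3 arrays is 0.1.

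TSPAN3, a widely expressed member of the family, fell on both of its probe sets. Probe set 200972_at read 78.5, 89.3 and 107 units with tretinoin, against 156, 149 and 213 units with DMSO. Probe set 200973_s_at read 34.9, 24.5 and 30.8 units with tretinoin, against 85.5, 51.2 and 69.8 units with DMSO. Neither probe set overlapped between conditions. The means of 200972_at were 91.5 ± 14.2 units with tretinoin and 173 ± 35.1 units with DMSO (SD, n = 3 each), a fall of 1.88-fold (log2 -0.91, 95% interval -1.37 to -0.46, limma adjusted p = 0.0104). Those of 200973_s_at were 30.1 ± 5.20 units with tretinoin and 68.8 ± 17.2 units with DMSO (SD, n = 3 each), a fall of 2.26-fold (log2 -1.18, 95% interval -1.72 to -0.64, limma adjusted p = 0.00725). Larger falls were seen for 7.93% of tested probe sets in the case of 200972_at and for 4.33% in that of 200973_s_at. The changes of the pair differed by 0.27 on the log2 scale (95% interval -0.63 to 1.16, exact two-sided permutation p = 0.5). The call of 200972_at was lost without the filter (adjusted p = 0.0518), and that of 200973_s_at with a floor of 40 units (log2 change -0.75, adjusted p = 0.0605), which lies above all of its tretinoin values.

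TSPAN32, also called TSSC6 or PHEMX, is a tetraspanin expressed mainly in blood cells. Probe set 220558_x_at read 67.2, 59.1 and 68.0 units with tretinoin, against 88.1, 98.3 and 112 units with DMSO. All tretinoin values were below the DMSO values. Means were 64.7 ± 4.93 units with tretinoin and 99.4 ± 11.9 units with DMSO (SD, n = 3 each), a fall of 1.53-fold (log2 -0.62, 95% interval -0.95 to -0.28, limma adjusted p = 0.0158), and 15.2% of tested probe sets fell further. This change sat close to the 1.5-fold minimum and dropped below it without tretinoin replicate 2 (log2 -0.55), without DMSO replicate 3 (log2 -0.53) and when 16 units were added instead of setting a floor (log2 -0.51).

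CD82, also known as KAI1 and described as a suppressor of metastasis, was not called. Probe set 203904_x_at read 39.8, 87.6 and 69.6 units with tretinoin, against 43.4, 48.1 and 27.9 units with DMSO. Tretinoin replicates 2 and 3 were above all DMSO arrays, while tretinoin replicate 1 lay among them. Means were 65.7 ± 24.1 units with tretinoin and 39.8 ± 10.6 units with DMSO (SD, n = 3 each), and the log2 change was 0.69 (95% interval -0.10 to 1.47, limma adjusted p = 0.169). Without tretinoin replicate 1 it was 1.01 with an adjusted p of 0.0440, and the probe set was then called higher.

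TSPAN4, which marks the retraction fiber vesicles called migrasomes, was not called on either probe set. Probe set 209263_x_at read 35.4, 54.0 and 41.7 units with tretinoin, against 42.7, 44.6 and 43.0 units with DMSO. The DMSO values lay within the spread of the tretinoin values. Means were 43.7 ± 9.47 units with tretinoin and 43.4 ± 1.03 units with DMSO (SD, n = 3 each), and the 95% interval of the log2 change ran from -0.43 to 0.40 (estimate -0.01, limma adjusted p = 0.967). Probe set 209264_s_at read 16.1, 30.8 and 20.8 units with tretinoin, against 12.6, 21.7 and 18.5 units with DMSO. It exceeded the baseline on 2 tretinoin arrays and 1 DMSO array, so no fold is given for it, and its fitted log2 value of 0.19 is set in part by the floor (limma adjusted p = 0.515).

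CD9, a tetraspanin of platelets and many epithelia that is needed on the mouse egg for fusion with sperm, was below the baseline on every array. Probe set 201005_at read 1.40, 2.05 and 1.78 units with tretinoin, against 4.90, 2.26 and 4.35 units with DMSO. CD151, a close partner of the laminin-binding integrins, was below it as well. Probe set 204306_s_at read 13.9, 5.73 and 12.3 units with tretinoin, against 3.90, 3.79 and 4.51 units with DMSO. Neither probe set was tested and neither is given a fold. The genes of the laminin-binding integrin chains ITGA3, ITGA6 and ITGA7 did not reach the test either.

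**Figure D2:**
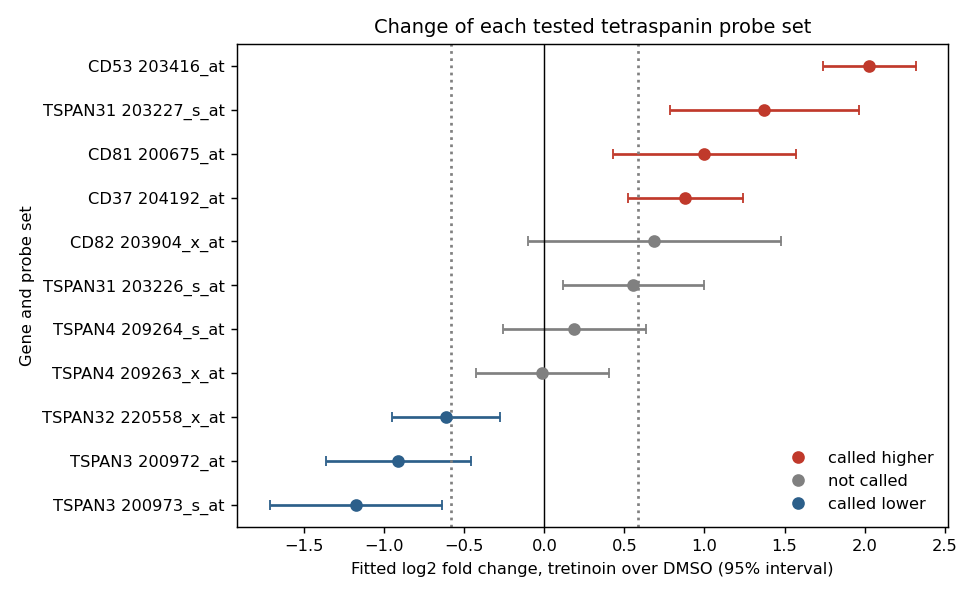
Fitted log2 change, tretinoin over DMSO, of the 11 tested tetraspanin probe sets, with 95% intervals from limma and dotted lines at 1.5-fold in either direction. CD53 lies at 2.03, the rise of the largest size, and TSPAN3 on 200973_s_at at -1.18, the fall of the largest size among these probe sets, while TSPAN4 on 209264_s_at is plotted from values partly at the floor.

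On HG-U133A arrays the ending _x_at marks probe sets whose probes may also bind other transcripts, and _s_at those whose probes match several transcripts. The ending _x_at applies to CD82, TSPAN32 and one TSPAN4 probe set, and cross-hybridization was not tested. The FLOT1 and RAB27A probe sets given further below (208749_x_at and 210951_x_at) also carry that ending. Signals of different probe sets have no common scale, and none is ranked against another.

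In the genome 5 of the 10 genes (CD81, CD82, CD151, TSPAN4 and TSPAN32) lie on chromosome 11, CD9 and TSPAN31 on chromosome 12, CD53 on chromosome 1, TSPAN3 on chromosome 15 and CD37 on chromosome 19. TSPAN32 and CD81 are next to each other on chromosome 11 and moved in opposite directions. The nearest tested protein-coding gene on either side of each member lay 1 to 6 genes away, with LAMTOR5 and KCNA1 at 5. Other than members themselves these numbered 17, with a median log2 change of -0.05. Of them 2 (LAMTOR5 and AGAP2) were called higher, 3 (CDK4, C11orf21 and KCNA1) lower and 12 not. AGAP2 and KCNA1 had values under the baseline. Over all tested genes 13.5% were called higher and 14.3% lower. The annotated ranges of CDK4, a kinase of the cell cycle, and TSPAN31 overlap. CDK4 averaged 125 ± 8.35 units with tretinoin and 376 ± 10.6 units with DMSO (SD, n = 3 each), a fall of 3.00-fold (limma adjusted p = 0.000145) beside the rise of TSPAN31 on 203227_s_at. C11orf21, whose range overlaps that of TSPAN32, fell by 1.66-fold (limma adjusted p = 0.0101), the same direction as TSPAN32. The AGAP2 call held in 3 of 16 alternatives, that of KCNA1 in 11 of 16 (lost without tretinoin replicate 2 among others, log2 -0.57) and that of C11orf21 in 15 of 17. LAMTOR5 was not called without scaling (adjusted p = 0.160).

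Each gene was next represented by its brightest probe set, so that the tetraspanins could be set beside the rest of the family and their known partners. Members and partner lists were chosen with earlier results of these data known, so their counts describe those lists and are no independent evidence. On that basis 8 of the 10 genes were tested, and 3 were called higher (CD37, CD53 and CD81), where 13.5% of 8161 tested genes were, and 2 lower (TSPAN3 and TSPAN32), where 14.3% were. Of the 23 other tetraspanin genes listed, 16 had a probe set of their own, 9 were tested, 2 were called higher and none lower by limma (0 lower at an unadjusted p under 0.05), with a median log2 change of -0.12.

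CD63, the tetraspanin of lysosomes and of the azurophil granules of granulocytes, was one of those 2. It read 1482, 1391 and 1583 units with tretinoin, against 420, 425 and 448 units with DMSO. No values overlapped, and the rise was 3.44-fold (log2 1.78, SE 0.12, limma adjusted p = 9.9e-05). The second was TSPAN14, one of the tetraspanins that escort the protease ADAM10 to the cell surface, at 264, 328 and 296 units with tretinoin, against 183, 183 and 190 units with DMSO. Its rise was 1.59-fold (limma adjusted p = 0.00779) and was not called without scaling (adjusted p = 0.188). ADAM10 itself rose by 1.97-fold (limma adjusted p = 0.00287). TSPAN7, TSPAN13, TSPAN15, UPK1A, UPK1B, PRPH2 and ROM1 were tested and not called. TSPAN7 was called lower without tretinoin replicate 2 (log2 -0.74, adjusted p = 0.0332), against -0.48 and an adjusted p of 0.197 with all arrays. TSPAN1, TSPAN2, TSPAN5, TSPAN6, TSPAN8, TSPAN9 and TSPAN12 did not reach the test.

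**Figure D3:**
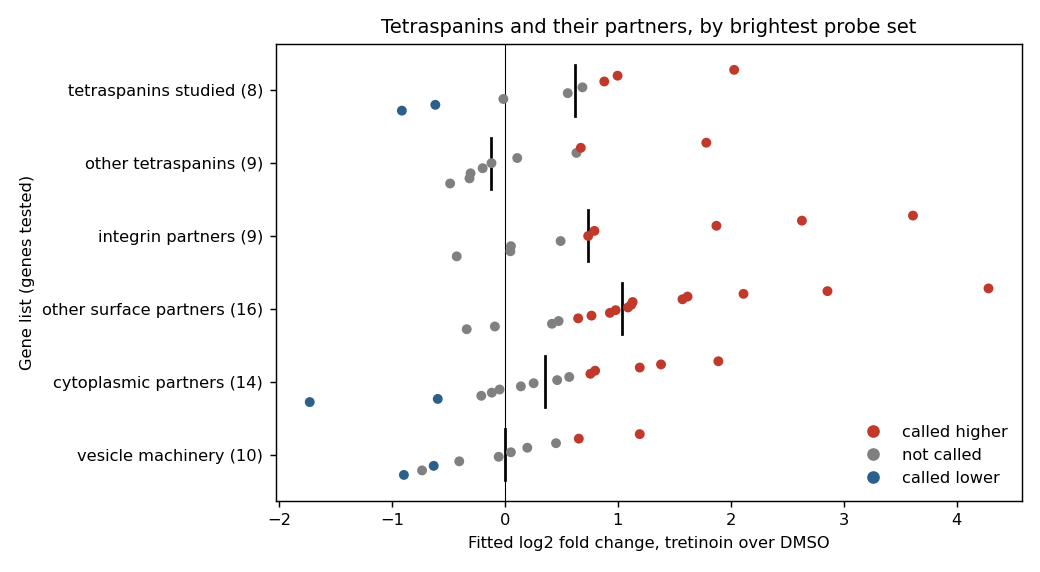
Fitted log2 change, tretinoin over DMSO, of every tested gene by its brightest probe set, with 1 row per list (number of genes tested in brackets) and a black line at the list's median. The surface partners have a median of 1.03 and run up to CD36 at 4.28, a lower bound because its DMSO values lie under the floor. The tetraspanins studied run from TSPAN3 at -0.91 to CD53 at 2.03 with a median of 0.62.

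Integrins are the adhesion receptors that tetraspanins most often hold. Of 12 listed integrin genes 9 were tested, 5 were called higher and none lower by limma (1 lower at an unadjusted p under 0.05, ITGA2). Among all tested genes 13.5% were called higher and 14.3% lower. The median log2 change of the integrin genes was 0.74 (genes at the floor enter these medians at their bound). ITGB2, the shared chain of the leukocyte integrins, read 2077, 1994 and 2084 units with tretinoin, against 585, 582 and 516 units with DMSO, a rise of 3.66-fold (limma adjusted p = 8.6e-05). ITGAM, which pairs with ITGB2, rose by 6.19-fold, ITGB7 by at least 12.2-fold and ITGB1, the chain most often linked to CD81 and CD151, by 1.73-fold. On the scaled arrays these increases all stood clear of the DMSO range. ITGB7 read 251, 248 and 278 units with tretinoin, against 23.7, 16.9 and 9.52 units with DMSO. It would not have passed the filter without its tretinoin arrays, so its lack of overlap is not independent of that selection. ITGAM had 2 tested probe sets, of which only the brightest, given here, was called. The fifth integrin called was ITGB3, at least 1.67-fold higher (limma adjusted p = 0.0333), whose call held in 4 of 16 alternatives. Only 1 of the 4 tested probe sets of ITGB3 was called. That probe set exceeded the baseline on 2 DMSO arrays and also needed its tretinoin arrays to pass the filter. With no scaling 3 integrin genes were called higher, with ITGB1 and ITGB3 no longer among them.

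Among listed receptors and other surface proteins reported as tetraspanin partners, 16 of 21 genes were tested. Of these, 12 were called higher and none lower by limma (0 lower at an unadjusted p under 0.05). The shares over all tested genes were 13.5% higher and 14.3% lower. The median log2 change was 1.03, and the list was chosen with earlier results of these data known. CD36, a scavenger receptor, read 375, 373 and 420 units with tretinoin, against 12.0, 17.2 and 13.8 units with DMSO, all under the baseline. Its rise was at least 19.4-fold (limma adjusted p = 4.4e-06). It passed the filter through the tretinoin arrays alone, so its p-value is not independent of that selection. CLEC7A, the gene of dectin-1 and the partner of CD37 named above, read 344, 307 and 449 units with tretinoin, against 61.4, 51.0 and 39.9 units with DMSO. It rose by 7.24-fold (limma adjusted p = 0.000141), while CD37 rose by 1.84-fold. PTPRC, the leukocyte phosphatase CD45, rose by 4.32-fold and CD4 by 3.07-fold.

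Cytoplasmic partners were called in both directions. Of 14 genes, all tested, 5 were called higher, 2 lower and 7 not, beside 13.5% higher and 14.3% lower over all tested genes. The count called lower was near that share, and the median log2 change was 0.36. LYN, a Src family kinase of myeloid and B cells, rose by 3.71-fold (limma adjusted p = 9.6e-05), CTNNB1, the gene of beta-catenin, by 2.61-fold and SDCBP, the gene of the CD63-binding adaptor syntenin, by 2.29-fold. EZR and RDX encode ezrin and radixin, which tie membrane proteins to actin. EZR read 24.7, 25.0 and 16.6 units with tretinoin, against 70.5, 75.6 and 83.8 units with DMSO, and was at least 3.31-fold lower (limma adjusted p = 0.000223). RDX fell by 1.51-fold, and its call was lost in 6 of 17 alternatives. Only 1 of the 2 tested probe sets of RDX was called. MSN, the gene of the related moesin, averaged 616 ± 52.9 units with tretinoin and 635 ± 42.8 units with DMSO (SD, n = 3 each, limma adjusted p = 0.832). ITGA2, RDX and MSN were named after their values were seen, as were ITGB3 and ADAM10.

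**Figure D4:**
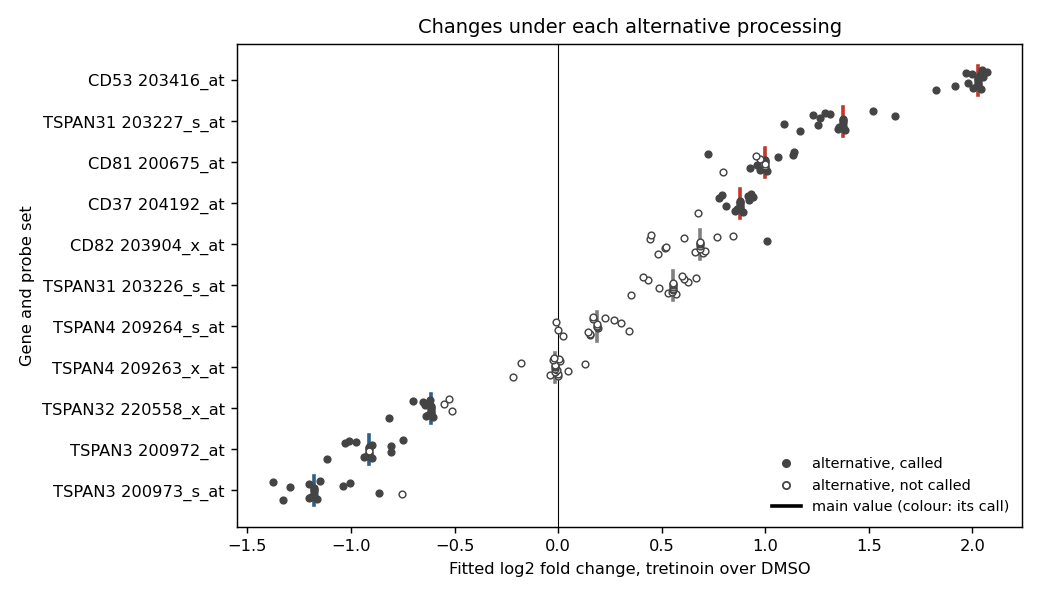
Fitted log2 change, tretinoin over DMSO, of each tested tetraspanin probe set under each alternative processing (filled points where the probe set was called, open points where it was not), with a colored bar at the value reported here. CD53 stayed between 1.83 and 2.07 in all alternatives, and open points for CD81, CD37, TSPAN3 and TSPAN32 show where those calls were lost.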

How the data were processed

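HL60 RNA from 2 conditions was measured on 6 HG-U133A arrays. The authors computed signals with MAS5 (version and settings not given in the sources used here) and deposited linear intensity values before scaling between arrays. The study's methods describe scaling to equal overall intensity. Here the mean of DMSO replicate 1 was taken as the target, a floor of 20 was applied, and the log2 signals entered lmFit and eBayes of limma 3.58.1 in R 4.3.3. The fit was run on simulated data with a common spread and changes only in probe sets well above the baseline. That simulation says nothing of dimmer probe sets or of unequal spread. Tables and figures were made in Python 3.11.15 with scipy 1.17.1, pandas 2.3.3, numpy 2.4.6 and matplotlib 3.10.9. Folds are fitted. Where an array of one condition was under 20 the fold is a lower bound. Of 22283 probe sets, 19071 had 1 gene symbol, 1043 several and 2169 none. The number of arrays limits the precision.

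Members, partner lists and marker lists were chosen with earlier results of these data known. All member probe sets were named, all measured other tetraspanins, up to 4 called genes with the largest change per partner list, and called neighbors. Alternatives changed the scaling, floor, filter, variance model, replicate block, fold minimum or left out 1 array. Replicate numbers did not pair the arrays.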

Additional observations from a re-analysis of the deposited data

How the results depend on the processing

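The 11 tested tetraspanin probe sets were refitted 186 times in all, and 169 fits kept the call without a change of sign. Among these is the fit of 209264_s_at with a floor of 40 units, where the change was 0. In 11 fits a call was lost (CD37, CD81, TSPAN3 and TSPAN32), in 1 a call was gained (CD82) and in 5 the sign changed, all of them for TSPAN4. On 209263_x_at, whose value was -0.01, the change was 0.046 with a floor of 40 units and ran from -0.18 to 0.13 when each array was left out in turn. On 209264_s_at, whose fitted value was 0.19 and partly set by the floor, it ran from -0.011 to 0.30 on the same basis. With a floor of 40 units the difference between the probe sets of TSPAN3 turned to -0.16 and that of TSPAN4, which was -0.20, to 0.046. A floor of 40 lies above every value of 209264_s_at and sets its change to 0, so the TSPAN4 difference says nothing of how its probe sets compare.

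The count of tetraspanin probe sets called higher was 4, and 2 without scaling or with a 2-fold minimum, which CD81 missed narrowly. The count called lower was 3, and 1 with the 2-fold minimum. Leaving out each array gave 3 to 4 higher and 2 to 3 lower. Over all probe sets, 1824 were called higher and 1850 lower. Without scaling 1142 were higher and 2312 lower, and with the 2-fold minimum 1012 were higher and 860 lower. With the replicate number as a block, 4 tetraspanin probe sets were called higher and 3 lower, the same ones. The deviations of same-numbered arrays correlated at -0.027, -0.014 and 0.066 across probe sets, so the numbers were not taken as pairs. Among the 11 tetraspanin probe sets and the 26 other genes that were refitted, the block changed no call except those of AGAP2 (adjusted p = 0.0816) and ITGB3 (adjusted p = 0.0633), which were lost. Signals below or near 20 units limit what can be said of CD9, CD151, TSPAN4 and TSPAN15.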

Other observations

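Tetraspanins such as CD63, CD81 and CD9 are the usual markers of exosomes, and genes of the machinery that forms and releases vesicles were called in both directions. Of 14 listed genes 10 were tested, 2 were called higher, 2 lower and 6 not, beside 13.5% higher and 14.3% lower over all tested genes. Both counts were near those shares, and the median log2 change was -0.00083. SDCBP, the gene of syntenin, and FLOT1, which encodes a scaffold of membrane rafts, were higher. The SDCBP measurement is the one already counted among the cytoplasmic partners. FLOT1 rose by 1.57-fold (limma adjusted p = 0.00669) and was not called without scaling. RAB27A, a GTPase of granule and vesicle docking, read 229, 265 and 238 units with tretinoin, against 459, 442 and 456 units with DMSO, a fall of 1.86-fold (limma adjusted p = 0.00164), and 3 of its 4 probe sets were called lower. HGS, an ESCRT protein that sorts cargo at endosomes, fell by 1.55-fold (limma adjusted p = 0.00968), and its call was lost without tretinoin replicate 3 (log2 -0.56).

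TSPAN15, like TSPAN14 a companion of ADAM10, depended on where the floor was set. It read 8.82, 1.77 and 2.53 units with tretinoin, against 24.5, 22.4 and 22.0 units with DMSO. The conditions did not overlap, yet every tretinoin value was under the baseline and every DMSO value just above it. It passed the filter through its 3 DMSO arrays alone, so neither the lack of overlap nor a p-value is independent of that selection. With the floor of 20 units the log2 change was -0.20 (limma adjusted p = 0.257). It was -1.20 with a floor of 10 units and -0.95 with 16 units added instead of a floor. The range over its 16 alternatives was -1.20 to 0.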
